A study of Mus musculus with 6 samples.

Results

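The genes described here are 10 surface markers used to define mesenchymal stromal cells, often called mesenchymal stem cells: Ly6a, Thy1, Lepr, Nt5e, Cd34, Eng, Vcam1, Alcam, Cd44 and Mcam. They were taken by symbol from a table of 17213 genes, and all 10 were found and passed the filter on low counts, among 14632 genes tested. RNA was measured in 3 KO-labelled libraries, with the genotype Pth1r(-/-), and 3 Het-labelled libraries, with the genotype Pth1r(+/-). All 6 came from mouse mandibular molars at postnatal day 8, from follicle cells positive for the reporter tdTomato and labelled PTHrP+, so the sort and the reporter were shared by both groups. Tamoxifen, which starts the conditional deletion of Pth1r, was given to both groups, at day 3 per the series text and at day 8 per the sample descriptions. The labels name no driver line, and do not say how many animals went into a library or whether animals were pooled.

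The dental follicle is a loose mesenchyme that surrounds the tooth before it erupts, and its progenitor cells form the tissues that anchor the tooth: the cementum on the root, the ligament and the bone of the socket. Pth1r encodes the receptor for parathyroid hormone and for PTHrP, which signals largely through cyclic AMP. No single surface protein defines a stromal progenitor, so panels are used. The classical human panel asks for the ecto-enzyme encoded by NT5E, the glycoprotein encoded by THY1 and the TGF-beta co-receptor encoded by ENG, together with the absence of blood cell antigens. In mice Ly6a (Sca-1) and Lepr serve as further markers, of marrow stromal cells among others. Several of these proteins are shared with other cells: endothelium carries Cd34, Eng and Mcam, lymphocytes carry Thy1 and Cd44, and pericytes carry Mcam.

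The libraries held between 34019925 and 66147200 counts, and Het replicate 2 stood apart on the first principal component (38.6% of the variance). The sorted cells had high levels of matrix genes that fibroblasts and osteoblasts share, with Col1a1 between 9738 and 41011 CPM (counts divided by the TMM-normalized library size) and Col3a1 between 8990 and 21256 CPM. They also held transcripts of dental epithelium: its 8 listed markers summed to 5188 to 10839 CPM in KO-labelled and 5281 to 8513 CPM in Het-labelled libraries, with Amelx, an enamel matrix gene of ameloblasts, between 1751 and 3341 CPM. Pthlh, the gene of PTHrP, was at 317 ± 28.5 CPM in KO-labelled and 289 ± 47.4 CPM in Het-labelled libraries (SD, n = 3 each). Pth1r itself went against the labels, at 680 ± 253 CPM in KO-labelled and 334 ± 43.9 CPM in Het-labelled libraries (SD, n = 3 each), with no overlap between the groups. Its unadjusted p was 0.00489 and its adjusted p 0.740 in edgeR's quasi-likelihood test, and its adjusted p in DESeq2 was 0.0554. Counts summed over the gene cannot tell a deleted transcript from an intact one, so every direction given here refers to the labels and not to a loss of the receptor that these data show.

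For none of the 10 markers could a difference between the groups be told from the spread between replicates. In edgeR's quasi-likelihood test, 0 of 10 passed an adjusted p of 0.05, against 0 of all 14632 genes (0%). At an unadjusted p under 0.05 there were also 0 of 10, against 4.29% of all genes, and DESeq2 called 0 of 10, against 0.519% of the genes it tested. In all 10 markers the CPM values of the groups overlapped, whereas the groups did not overlap for 10.7% of all genes. The fitted value was higher for 3 markers and lower for 7 in KO-labelled libraries; their median log2 fold change was -0.21, against -0.0095 over all genes. The median size of the log2 fold change, whatever its sign, was 0.28 for the markers and 0.26 for all genes. In bulk RNA, fewer cells of a type and less RNA per cell cannot be told apart. How closely a change was bounded differed by marker: the 95% interval of the fold ran from 0.765 to 1.44 for Nt5e, but from 0.181 to 1.17 for Cd34 and from 0.248 to 2.11 for Thy1.

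**Figure D1:**
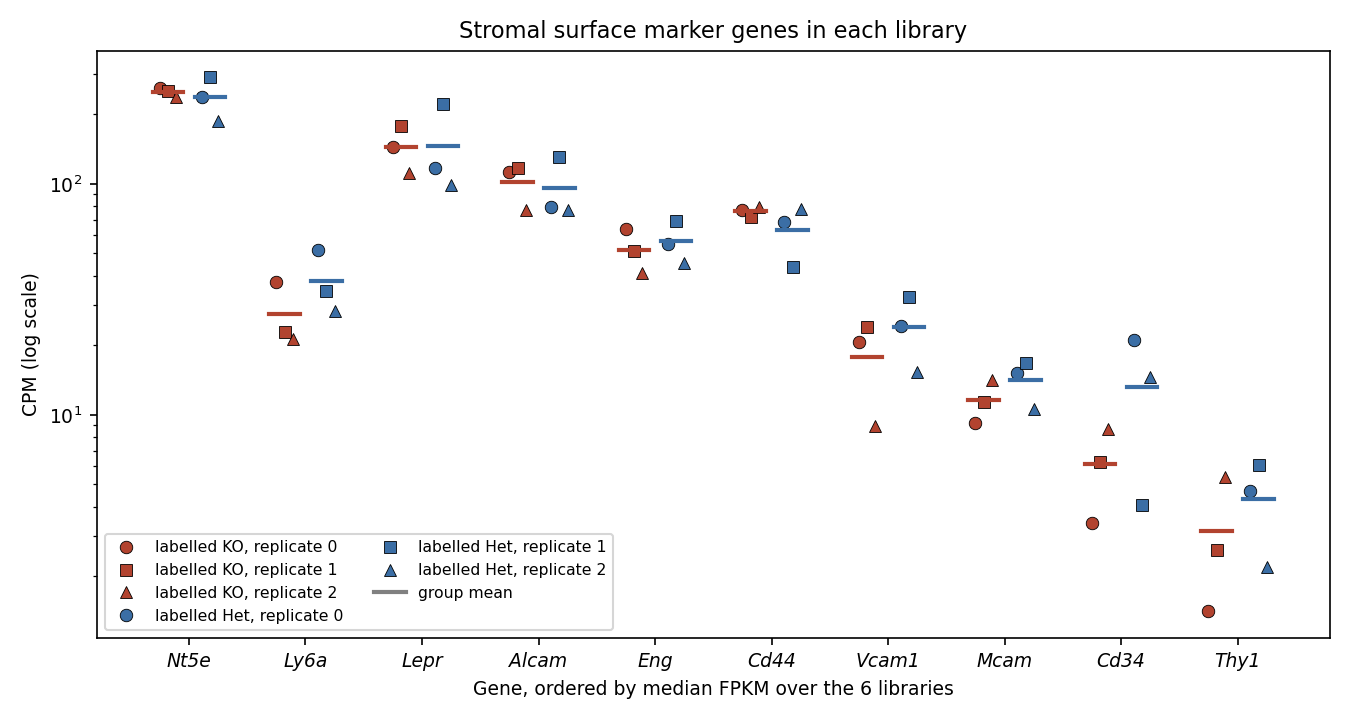
CPM of each stromal surface marker gene (log axis) in KO-labelled libraries (red, left) and Het-labelled libraries (blue, right), with a symbol for each replicate number and a bar for the group mean. The groups overlap for every gene, and the replicates lie closest together for Nt5e and farthest apart for Cd34.

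**Figure D2:**
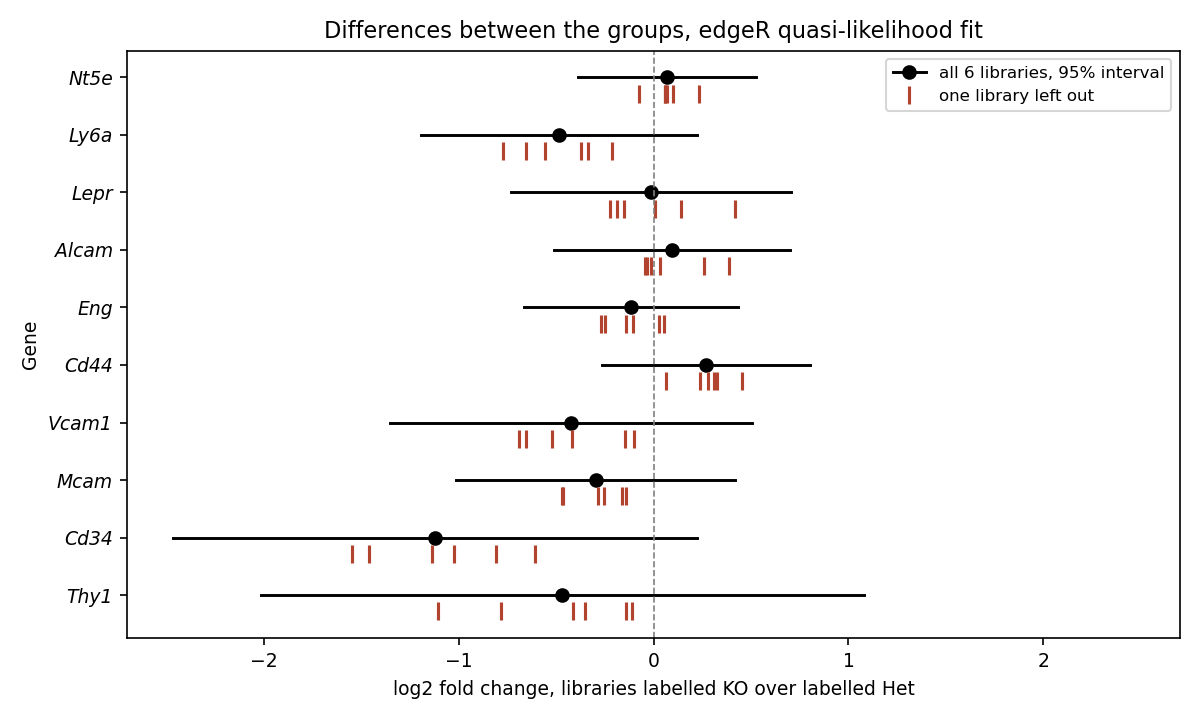
Log2 fold change of each marker, KO-labelled libraries over Het-labelled libraries, as the edgeR estimate from all 6 libraries (black point) with its 95% interval (black line), and as the estimates with 1 library left out (red ticks). All 10 intervals include 0, and the ticks of Nt5e, Lepr, Alcam and Eng lie on both sides of it.

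Levels can be compared between genes only per length of transcript, in FPKM (the authors' fragment values, scaled by transcript length and by library size). On that scale Nt5e had the highest median, 66.1 FPKM over the 6 libraries, with a range of 40.3 to 82.2 FPKM, followed by Ly6a at 42.0 FPKM, Lepr at 23.5 FPKM, Alcam at 19.1 FPKM, Eng at 15.5 FPKM and Cd44 at 12.5 FPKM. The lower markers were Vcam1 at 6.38 FPKM, Mcam at 4.30 FPKM, Cd34 at 2.80 FPKM and Thy1 at 2.14 FPKM. Cd44 lay above Vcam1 with no overlap of their ranges (9.85 to 16.5 against 1.88 to 9.19 FPKM). All other neighbours in this order overlapped in range, although Lepr was above Alcam within each of the 6 libraries. These medians pool libraries whose FPKM values rest on different implied transcript lengths, and the order differed between libraries. Nt5e was the highest marker in 5 libraries and Ly6a in Het replicate 0. In both libraries numbered 2 Eng ranked above Lepr, and Cd44 above Alcam. Thy1 was the lowest marker in 4 libraries, but lay above Cd34 and Vcam1 in KO replicate 2 and above Cd34 in Het replicate 1. By median FPKM over the 6 libraries, Nt5e of the classical panel stood above 91.1% of the genes with any count and Eng above 70.3%, while Thy1 stood above only 39%.

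Nt5e, Ly6a and Thy1 encode proteins held in the membrane by a lipid anchor. Nt5e encodes CD73, the enzyme that turns extracellular AMP into adenosine (chromosome 9, 88327197 to 88372092, plus strand, GRCm38). It was at 259, 252 and 239 CPM in KO replicates 0, 1 and 2, and at 237, 289 and 188 CPM in Het replicates 0, 1 and 2. The KO-labelled libraries were nearly level and lay within the range of the Het-labelled libraries. A log2 fold change of 0.070 had a standard error of 0.20 (edgeR adjusted p = 0.984) and, without Het replicate 2, became -0.073.

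Ly6a encodes Sca-1, a small protein of the Ly6 family used to sort mouse stem and progenitor cells (chromosome 15, 74994877 to 74998031, minus strand). It was at 37.6, 22.9 and 21.2 CPM in KO replicates 0, 1 and 2, and at 51.7, 34.4 and 28.3 CPM in Het replicates 0, 1 and 2. KO replicate 0 lay above Het replicates 1 and 2, so the groups overlapped, although the lowest values were in KO-labelled libraries and the highest in a library labelled Het. By replicate number 0, 1 and 2, the log2 ratio of the KO-labelled to the Het-labelled library was -0.46, -0.586 and -0.415. Ly6a had a fitted log2 fold change of -0.49 (standard error 0.31, edgeR adjusted p = 0.976), which was -0.77 without KO replicate 0 and -0.21 without Het replicate 0. Ly6a has close relatives beside it in the genome, so its counts depend on how reads that match several genes were treated, which is not given in the sources used here. In the GENCODE M21 transcripts, 19% of its stretches of 50 bases also occur in another gene, most of them in Ly6c1. The longest run that the genes share within their coding sequences, of 48 bases, is shown with its surroundings as an example. Longer shared runs reach beyond the coding sequence of either or both genes. A read wholly inside a shared run matches both genes, but whether any read was short enough to lie wholly inside this one was not tested. Capitals mark the 5 bases that differ between the genes, both on chromosome 15.
Ly6a: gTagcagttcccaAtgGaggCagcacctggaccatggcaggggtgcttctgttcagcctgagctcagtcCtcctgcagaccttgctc
Ly6c1: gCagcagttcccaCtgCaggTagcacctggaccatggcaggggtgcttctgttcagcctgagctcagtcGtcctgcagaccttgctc
Ly6c1 itself was at 8.52 ± 1.62 CPM in KO-labelled and 9.79 ± 3.40 CPM in Het-labelled libraries (SD, n = 3 each), below Ly6a in every library. The Ly6a value is uncertain to the extent that reads were shared between them. For the other 9 markers 0% to 2.51% of such stretches occur in another gene.

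Thy1 encodes CD90, an immunoglobulin-domain protein of fibroblasts, neurons and T cells (chromosome 9, 44043384 to 44048579, plus strand). It was at 1.41, 2.60 and 5.37 CPM in KO replicates 0, 1 and 2, and at 4.70, 6.07 and 2.19 CPM in Het replicates 0, 1 and 2. Replicate 2 was the highest of the KO-labelled libraries and the lowest of the Het-labelled ones, so the values were interleaved. Its fold change, -0.47 on the log2 scale, had a standard error of 0.68 (edgeR adjusted p = 0.981), and was -1.11 without KO replicate 2, -0.11 without KO replicate 0 and -0.14 without Het replicate 1.

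Lepr and Eng encode receptors. Lepr, the receptor of leptin and a marker of perivascular stromal cells in adult mouse marrow (chromosome 4, 101717404 to 101815352, plus strand), was at 144, 178 and 112 CPM in KO replicates 0, 1 and 2, and at 117, 221 and 99.2 CPM in Het replicates 0, 1 and 2. In both groups replicate 1 was the highest and replicate 2 the lowest, and the means were 145 ± 32.9 CPM in KO-labelled and 146 ± 65.7 CPM in Het-labelled libraries (SD, n = 3 each). The log2 fold change of -0.011 had a 95% interval of -0.73 to 0.71 (edgeR adjusted p = 0.9998). Its sign turned without KO replicate 0 (0.0072), without KO replicate 2 (0.14) and without Het replicate 1 (0.42).

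Eng encodes endoglin (CD105), a co-receptor for TGF-beta family ligands (chromosome 2, 32646595 to 32682669, plus strand). It was at 63.5, 51.4 and 41.1 CPM in KO replicates 0, 1 and 2, and at 55.0, 68.7 and 45.2 CPM in Het replicates 0, 1 and 2. The groups were interleaved, with a log2 fold change of -0.12 and a standard error of 0.24 (edgeR adjusted p = 0.981). The estimate was 0.028 without KO replicate 2 and 0.052 without Het replicate 1. An exon of Fpgs lies on the opposite strand over an exon of Eng, and the strand setting of the counting is not given in the sources used here, so reads of the pair cannot be told apart there. Likewise opposite-strand exons of predicted genes lie over exons of Cd34, Vcam1 and Mcam.

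Vcam1, Alcam, Cd44 and Mcam encode adhesion proteins. Vcam1, the ligand of the alpha4 beta1 integrin on blood cells (chromosome 3, 116109949 to 116129688, minus strand), was at 20.7, 24.0 and 8.92 CPM in KO replicates 0, 1 and 2, and at 24.3, 32.2 and 15.3 CPM in Het replicates 0, 1 and 2. Replicate 1 was the highest and replicate 2 the lowest in both groups, and the spread within a group exceeded the difference between the groups. Part of that spread ran with the replicate number. Within numbers 0, 1 and 2 the log2 ratio of the KO-labelled to the Het-labelled library was -0.228, -0.429 and -0.781. The fitted log2 difference was -0.42, with a standard error of 0.41 (edgeR adjusted p = 0.976). It was -0.69 without KO replicate 1 and -0.10 without KO replicate 2.

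Alcam encodes CD166, an immunoglobulin-domain adhesion protein (chromosome 16, 52248996 to 52454074, minus strand). It was at 112, 117 and 77.2 CPM in KO replicates 0, 1 and 2, and at 79.2, 131 and 76.9 CPM in Het replicates 0, 1 and 2. All 3 KO-labelled libraries fell inside the range of the Het-labelled libraries. Alcam differed by 0.094 on the log2 scale, standard error 0.27 (edgeR adjusted p = 0.983), and it was -0.012 without KO replicate 1, -0.033 without Het replicate 0 and -0.042 without Het replicate 2.

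Cd44 encodes the main receptor of hyaluronan, which also binds osteopontin (chromosome 2, 102811141 to 102901665, minus strand). It was at 77.0, 72.0 and 79.5 CPM in KO replicates 0, 1 and 2, and at 68.2, 43.8 and 77.6 CPM in Het replicates 0, 1 and 2. The KO-labelled libraries were tightly grouped, and Het replicate 1 was the lowest of all 6. The log2 fold change of 0.27, the largest positive one among the markers, had a standard error of 0.24 (edgeR adjusted p = 0.976). It was 0.063 without Het replicate 1.

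Mcam encodes CD146, an adhesion protein of endothelium, pericytes and human marrow stromal cells (chromosome 9, 44134469 to 44142727, plus strand). It was at 9.18, 11.4 and 14.2 CPM in KO replicates 0, 1 and 2, and at 15.2, 16.8 and 10.6 CPM in Het replicates 0, 1 and 2. The group ranges overlapped, and the log2 fold change of -0.30 had a standard error of 0.31 (edgeR adjusted p = 0.976). It was -0.14 without KO replicate 0 and -0.47 without KO replicate 2. Since the targeted receptor signals through cyclic AMP, promoters from 250 bases before to 50 bases after the start (RefSeq, GRCm38.p6) were searched on both strands for the cyclic AMP response element TGACGTCA and for its part TGACG, which lies within it. RefSeq windows were at hand for 7 of the 10 markers, 8 windows in all. The whole element was in 1 of them, that of Mcam, against 1.79% of all windows, and its part was in 2, those of Mcam and Alcam, against 20.8%. The Mcam stretch at chr9:44134569-44134657 (plus strand) is shown with the element in capitals, its first base 29 bases before the RefSeq start. The gene as placed by GENCODE begins earlier, at 44134469, so the stretch lies inside it.
Mcam: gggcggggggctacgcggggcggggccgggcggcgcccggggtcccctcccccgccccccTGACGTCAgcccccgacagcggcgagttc
A match of letters is a description of the window and says nothing of binding in these cells.

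Cd34 encodes a sialomucin of blood progenitors, endothelium and some fibroblasts (chromosome 1, 194938819 to 194961279, plus strand). It was at 3.40, 6.24 and 8.66 CPM in KO replicates 0, 1 and 2, and at 21.1, 4.07 and 14.6 CPM in Het replicates 0, 1 and 2. Het replicates 0 and 2 lay above all KO-labelled libraries, but Het replicate 1 lay below 2 of them. The log2 fold change of -1.12 was the farthest from 0 among the markers, with a standard error of 0.59 (edgeR adjusted p = 0.976, unadjusted p = 0.0922). It was -0.61 without Het replicate 0 and -1.55 without Het replicate 1. Across the 6 libraries Cd34 had the widest range of the 10 markers, 6.20-fold between the highest and the lowest library, against 1.54-fold for Nt5e.

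Part of the variation followed single libraries rather than the groups. Het replicate 1 had the highest CPM of the 6 libraries for 7 of the 10 markers (Thy1, Lepr, Nt5e, Eng, Vcam1, Alcam and Mcam), against 14.9% of all genes tested. It was the lowest library for Cd44. The lowest value was in KO replicate 0 for Thy1, Cd34 and Mcam, in KO replicate 2 for Ly6a, Eng and Vcam1, and in Het replicate 2 for Lepr, Nt5e and Alcam. Het replicate 2, which was the highest library for 28% of all genes, was the highest for 0 of the markers.

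The deposited FPKM values carried a further difference that ran with the replicate number. CPM divided by FPKM gives the transcript length, in kilobases, that the authors' FPKM implies. For Lepr it was 5.55, 5.17 and 8.91 kb in KO replicates 0, 1 and 2, and 5.57, 5.25 and 9.04 kb in Het replicates 0, 1 and 2. For Alcam it was 4.99, 4.82 and 8.71 kb in KO replicates 0, 1 and 2, and 5.04, 4.75 and 8.48 kb in Het replicates 0, 1 and 2. Cd44 also had a longer implied length in both libraries numbered 2, and Eng a shorter one (2.72 and 2.94 kb against 3.39 to 3.60 kb). Both libraries numbered 2 stood outside the range of the other 4 for all 10 markers, above it for 7 and below it for Eng, Mcam and Thy1, and for 86.1% of 10454 genes with at least 1 CPM and 1 FPKM in every library. FPKM levels of these markers are therefore not on 1 scale between the libraries numbered 2 and the others, while the counts behind the tests do not use a length. Within the libraries numbered 0 and 1, and within those numbered 2, the log2 difference between the groups was -0.52 and -0.42 for Ly6a, -0.33 and -0.78 for Vcam1 and 0.45 and 0.034 for Cd44. For Thy1, Lepr, Nt5e and Mcam the sign differed between these parts. For Cd34, Eng and Alcam it did not, but the libraries numbered 0 and those numbered 1 differed in opposite directions, for Cd34 by -2.63 and 0.619. With 1 library per group numbered 2, that part has no replicate check.

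**Figure D3:**
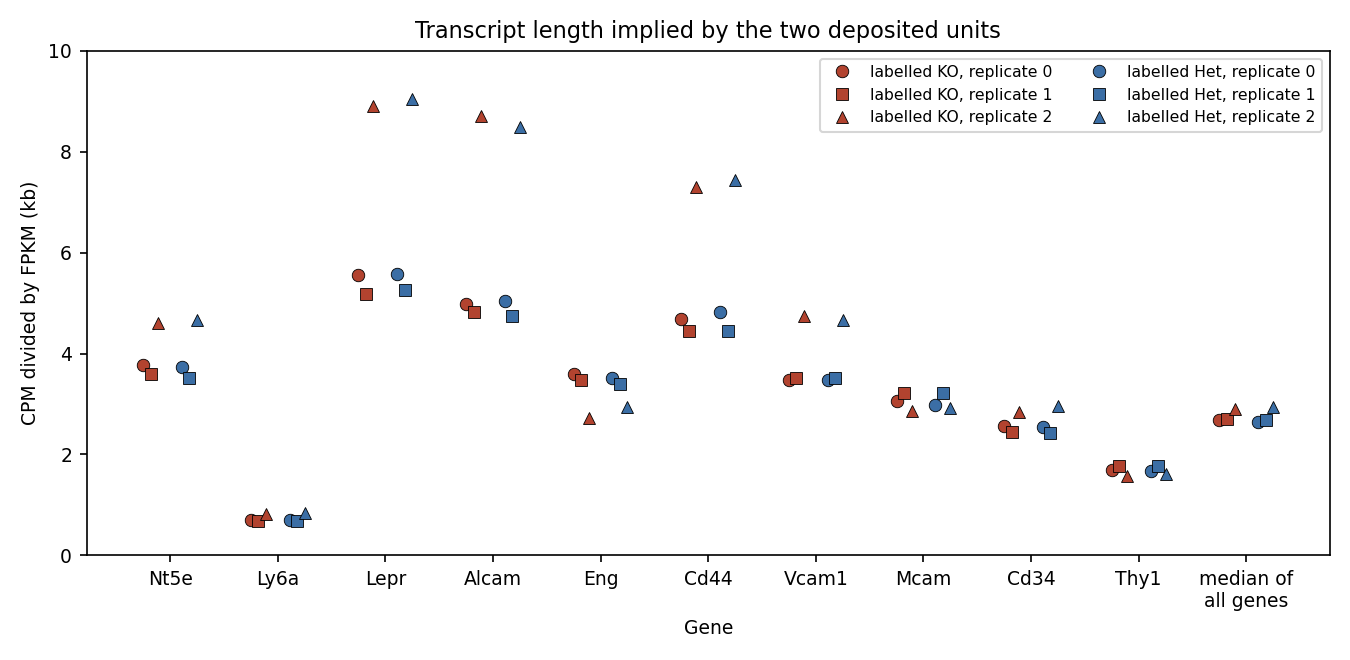
CPM divided by the deposited FPKM, in kilobases, for each marker and for the median of all genes, in KO-labelled libraries (red, left) and Het-labelled libraries (blue, right). The triangles, replicate 2 of both groups, stand apart from the other 4 libraries, most clearly for Lepr, Alcam and Cd44.

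Other genes used to mark skeletal progenitors and stromal cells were split evenly. Of 30 listed genes 29 were tested. The fitted value was higher for 14 and lower for 15, with a median log2 fold change of -0.0028. In edgeR 0 passed an adjusted p of 0.05, and 4 had an unadjusted p under 0.05, against 4.29% of all genes. DESeq2 called 1, against 0.519% of the genes it tested. That 1 gene was Cd200, an immunoregulatory membrane protein used in panels of mouse skeletal stem cells. It was at 278, 261 and 237 CPM in KO replicates 0, 1 and 2, and at 82.1, 83.4 and 84.2 CPM in Het replicates 0, 1 and 2. The groups did not overlap, with an adjusted p of 0.0796 in edgeR and 1.47e-19 in DESeq2. Angpt1, a secreted factor of marrow stromal cells, was at 37.3, 30.2 and 21.1 CPM in KO replicates 0, 1 and 2, and at 11.9, 10.6 and 23.3 CPM in Het replicates 0, 1 and 2 (edgeR adjusted p = 0.976). Acta2, the smooth muscle actin gene, averaged 527 ± 40.9 CPM in KO-labelled and 746 ± 58.7 CPM in Het-labelled libraries (SD, n = 3 each; edgeR adjusted p = 0.976).

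Ligands, receptors and downstream partners of the marker proteins were higher by fitted value in 21 and lower in 16 of 37 tested (43 listed). Their median log2 fold change was 0.12. In edgeR 0 passed an adjusted p of 0.05, and 2 had an unadjusted p under 0.05, against 4.29% of all genes. DESeq2 called 1, against 0.519% of the genes it tested. Spp1, which encodes osteopontin, a ligand of CD44 and a bone matrix protein, was the gene called by DESeq2 (adjusted p = 0.0222; edgeR adjusted p = 0.648), at 503 ± 67.2 CPM in KO-labelled and 252 ± 68.0 CPM in Het-labelled libraries (SD, n = 3 each). Socs3, an inhibitor of cytokine receptors that leptin signalling induces, was at 773 ± 246 CPM in KO-labelled and 397 ± 165 CPM in Het-labelled libraries, with overlapping values. Msn, which encodes moesin and links CD44 to the actin cytoskeleton, was at 345, 305 and 287 CPM in KO replicates 0, 1 and 2, and at 274, 232 and 216 CPM in Het replicates 0, 1 and 2. Its groups did not overlap, with a log2 fold change of 0.38 (edgeR adjusted p = 0.976, DESeq2 adjusted p = 0.769).

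Blood cell antigens that the stromal panels exclude were low. The summed level of 10 such genes was 12.8 to 54.9 CPM in KO-labelled and 19.7 to 36.6 CPM in Het-labelled libraries. The 10 stromal markers, Cd34 among them, summed to 607 to 737 CPM in KO-labelled and 558 to 847 CPM in Het-labelled libraries. Nt5e, Lepr and Alcam made up most of that sum, while Thy1 stayed at or under 6.07 CPM and Cd34 at or under 21.1 CPM. CPM is not scaled by transcript length, so the sums do not compare the levels of the 2 lists. Among the blood cell antigens, fitted values were higher for 5 and lower for 4 of the 9 tested (median log2 fold change 1.11). Of these 0 passed edgeR (0 at an unadjusted p under 0.05, 0 in DESeq2). Ptprc, the pan-leukocyte antigen CD45, chosen after its values were seen, was at 1.07, 1.48 and 6.13 CPM in KO replicates 0, 1 and 2, and at 0.0161, 3.23 and 0.787 CPM in Het replicates 0, 1 and 2. Itgam, Cd79b and H2-Ab1, markers of myeloid cells, B cells and antigen-presenting cells, each stayed at or under 11.9 CPM in every library.

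Summed levels of markers of other cell types differed between libraries and, for some lists, between the groups. Endothelial markers, 9 of 10 with a row in the table, summed to 6.19 to 13.1 CPM in KO-labelled and 15.4 to 20.1 CPM in Het-labelled libraries, with no overlap. Of 8 tested, 2 had a higher and 6 a lower fitted value, with 0 passing edgeR (0 at an unadjusted p under 0.05, 0 in DESeq2). The groups did not overlap for 2 of the 8, Pecam1 and Kdr, against 10.7% of all genes. Pecam1, a junction protein of endothelium, was at 1.07 ± 0.595 CPM in KO-labelled and 3.88 ± 2.57 CPM in Het-labelled libraries (SD, n = 3 each; edgeR adjusted p = 0.976). Kdr, a VEGF receptor, was at 3.60 ± 1.06 CPM in KO-labelled and 7.21 ± 1.79 CPM in Het-labelled libraries (SD, n = 3 each; edgeR adjusted p = 0.976). The part of endothelial RNA in the values of Cd34, Eng and Mcam was not tested.

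The pericyte and smooth muscle list, all 10 genes with a row, summed to 747 to 802 CPM in KO-labelled and 1035 to 1191 CPM in Het-labelled libraries. Acta2 alone made up most of each sum, at 487 to 569 CPM in KO-labelled and 708 to 814 CPM in Het-labelled libraries. Of 8 genes tested, the groups did not overlap for 2, Acta2 and Tagln, against 10.7% of all genes. Of the 8, 1 had a higher and 7 a lower fitted value, with 0 passing edgeR. An unadjusted p under 0.05 was found for 3, against 4.29% of all genes. DESeq2 called 1, against 0.519% of the genes it tested. That gene was Tagln, an actin-binding protein of smooth muscle, at 87.5 ± 6.95 CPM in KO-labelled and 168 ± 36.8 CPM in Het-labelled libraries (SD, n = 3 each; edgeR adjusted p = 0.634, DESeq2 adjusted p = 0.00870). The part of these cells in the value of Mcam was not tested.

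Leukocyte and macrophage markers, 12 of 12 tested, had higher fitted values in all 12, with 0 passing edgeR (0 at an unadjusted p under 0.05, 0 in DESeq2). They summed to 28.8, 105 and 158 CPM in KO replicates 0, 1 and 2, and to 22.5, 93.9 and 47.3 CPM in Het replicates 0, 1 and 2. The sums overlapped and varied within both groups. Lymphocyte markers, 8 of 10 with a row, summed to 4.10 to 17.7 CPM in KO-labelled and 2.09 to 7.43 CPM in Het-labelled libraries, and the T cell receptor component Cd3d, chosen after its values were seen, stayed at or under 0.263 CPM. Within each group Thy1 was highest in the library where both sums were highest, KO replicate 2 and Het replicate 1. Of Schwann and neural markers, which include cells that carry Thy1, the sum was 72.9 to 93.2 CPM in KO-labelled and 24.8 to 89.3 CPM in Het-labelled libraries. The part of these cells in the values of Thy1, Cd44 and Ly6a, and that of dental epithelium in any marker, was not tested.

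**Figure D4:**
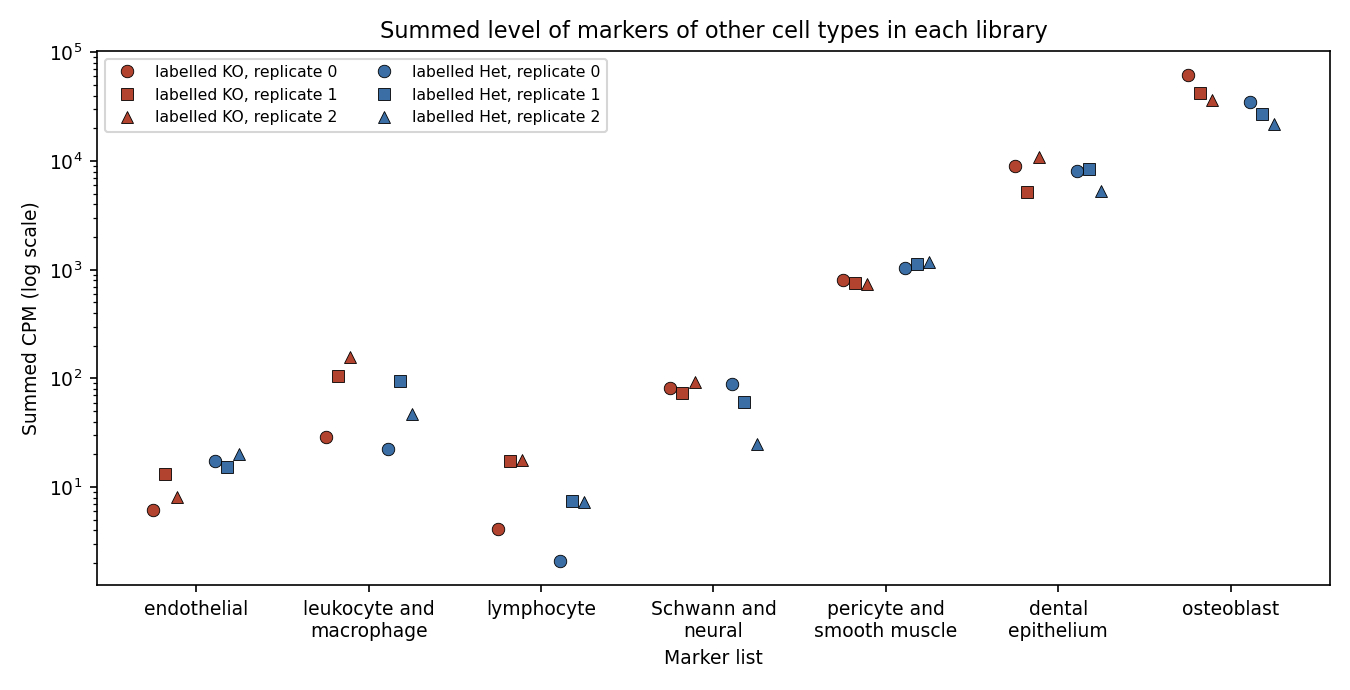
Summed CPM (log axis) of marker lists of other cell types in KO-labelled libraries (red, left) and Het-labelled libraries (blue, right), 1 symbol per library. The endothelial and the pericyte and smooth muscle sums are lower in all 3 KO-labelled libraries than in the 3 Het-labelled ones. Acta2 makes up most of the pericyte and smooth muscle sums. The osteoblast sums are higher, between 36785 and 61845 CPM in KO-labelled and between 21700 and 35118 CPM in Het-labelled libraries. Col1a1 and Ibsp make up most of these, and for each of these genes the groups overlap. Of 8 osteoblast markers tested, 8 had a higher fitted value. In edgeR 0 passed an adjusted p of 0.05, and 3 had an unadjusted p under 0.05, against 4.29% of all genes. DESeq2 called 1, against 0.519% of the genes it tested. The groups did not overlap for 1 of the 8, against 10.7% of all genes.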

How the data were processed

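Per the labels' protocols, follicle cells were dissociated with enzymes, tdTomato-positive cells were sorted, and low-input cDNA (SMART-Seq) was turned into Nextera XT libraries. Reads without molecular identifiers are not independent molecules. The submitters' processing notes name the mm10 build, the aligners Bowtie2 2.2.1 and TopHat2 2.0.13, and also HTSeq, DESeq2, Cuffdiff, Cufflinks and FastQC, without saying which file each made. The authors deposited whole-number counts per gene symbol, a second table of estimated counts (1.66% of values not whole, rounded here), and FPKM values scaled by length and library size. Estimated and whole-number counts were equal in every library for 9 of the 10 markers, and in 4 libraries for Eng. Scaled and log-transformed copies of the counts were not used.

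Counts were tested in R 4.3.3 with edgeR 4.0.16 (quasi-likelihood, TMM, default filter, two-sided, Benjamini-Hochberg over 14632 genes, threshold 0.05). DESeq2 1.42.0 and limma 3.58.1 were alternatives. Standard errors came from the F statistic. FPKM was tested as log2(FPKM + 1) and log2(FPKM + 0.1), a scale that understates changes of low genes. Scripts were tested on simulated data. Positions came from GENCODE M21, on the assembly of mm10. Groups and replicate numbers came from sample titles. No label says that libraries came from separate animals, so p-values cover only the variation among these 6 libraries, which may be technical. No pair of libraries agreed within sampling noise (chi-square per degree of freedom at least 91.3). The markers and all lists were chosen with earlier results of these data known. Named were the 10 markers, Pth1r, Pthlh, Cd200 and, of each list, at most 3 genes with the smallest unadjusted p, apart from genes stated to be chosen after their values were seen and genes named only to check the sorted cells or the counting.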

Additional observations from a re-analysis of the deposited data

How the results depend on the processing

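In all 16 refits, and at a threshold of 0.1, 0 of the 10 markers were called, and the median log2 fold change of the markers stayed negative, between -0.36 without Het replicate 2 and -0.036 without KO replicate 2. Among the 160 refitted marker values 147 kept their direction and 13 turned, all 13 for Lepr, Nt5e, Eng and Alcam, whose estimates lay near 0. Lepr became 0.062 on log2(FPKM + 1) with and without a filter, 0.068 on log2(FPKM + 0.1) and 0.053 when replicate number was a block. With 1 library left out, log2 fold changes ranged from -0.22 to 0.42 for Lepr, -0.073 to 0.23 for Nt5e, -0.27 to 0.052 for Eng and -0.042 to 0.39 for Alcam. The cause was not tested. Over all genes edgeR called 0. DESeq2 called 87 (66 higher, 21 lower), and 1 gene was called by limma-voom with quality weights, on log2(FPKM + 1) with and without a filter, on log2(FPKM + 0.1) and at a threshold of 0.1. With 1 library left out, edgeR called 0 to 1.

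In the replicate block fit edgeR called 0 genes and 0 markers. The unadjusted p in that fit was 0.0413 for Ly6a, 0.0862 for Vcam1 and 0.167 or more for the other markers. The adjusted p was 0.797 for both Ly6a and Vcam1. Deviations of same-numbered libraries from their group means correlated at 0.169, 0.0746 and 0.0694, and those of differently numbered libraries at -0.122 to 0.032. Every library thus correlated best with its own number, though weakly. The main fit did not use the numbers as pairs, and these correlations do not settle whether they pair the samples. Counts of these markers were 78 or more in every library, but reads without molecular identifiers do not count molecules, and what limited the calls was not tested.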
